A study of Mus musculus with 12 samples.

Results

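The genes of cholesterol efflux that the liver X receptors (LXRs) control were followed in liver immune cells of mice on normal chow diet (NCD) or high-fat diet (HFD), with and without caspase-11. LXRs are nuclear receptors that bind oxidised derivatives of cholesterol and, paired with a retinoid X receptor, switch on genes that move cholesterol out of the cell. In macrophages the ATP-binding cassette transporters pass cholesterol and phospholipid to apolipoproteins outside the cell, and the apolipoproteins, the phospholipid transfer protein and a phospholipid-remodelling enzyme are part of the same programme. LXRs also induce a ubiquitin ligase that lowers lipoprotein uptake, so that uptake falls while efflux rises. The genes were chosen by name as the 10 listed members of this programme, and all 10 were found among the 40840 genes of each library. They are the receptors Nr1h3 (LXR alpha) and Nr1h2 (LXR beta), the transporters Abca1 and Abcg1, the apolipoprotein genes Apoe, Apoc1 and Apoc2, Pltp (phospholipid transfer protein), Mylip (the ubiquitin ligase also called IDOL) and Lpcat3 (lysophosphatidylcholine acyltransferase 3).

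RNA was sequenced from the immune cell fraction of the liver of 12 male mice, with 3 mice in each of 4 groups. WT C57BL/6 mice on NCD (WT-NCD), WT mice on HFD (WT-HFD), Casp11-/- mice on NCD (Casp11-/- NCD) and Casp11-/- mice on HFD (Casp11-/- HFD) were 8 to 10 weeks old when the diets began and were fed for 12 weeks. Casp11-/- mice lack caspase-11, the product of the gene Casp4, in all cells, and were obtained as a separate strain, so strain background and the deletion cannot be told apart. Values are TPM, a measure of transcript abundance corrected for transcript length and library size, so that levels can be compared between genes within a library.

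Before the results, 3 features of the libraries bear on every value. The labels name hepatic macrophages, but transcripts of other cells were abundant: leaving out WT-NCD replicate 3, the summed TPM of 10 hepatocyte genes ran from 6779 to 25382, against 62.6 to 779 for 11 Kupffer cell genes, and none of the 10 hepatocyte genes was absent in those 11 libraries. WT-NCD replicate 3 stood apart, with 39677 genes above the lowest value in the files (1.01 TPM) against 12940 to 18775 in the others, and Pearson's r with the others over all genes was between -0.27 and -0.07, against 0.85 or more among the other 11. The differences of the 10 genes over both genotypes and the counts of called genes are therefore given with and without it. The share of TPM held by protein-coding genes was 15.7% to 25.2% in the 6 HFD libraries and 22.3% to 42.4% in the 5 NCD libraries other than that one, so a protein-coding gene could fall in TPM on HFD with no change relative to other protein-coding genes. The comparisons were therefore also made after rescaling the protein-coding genes to one common total. Casp4 itself was at 5.60 to 15.6 TPM in the WT libraries and 2.56 to 15.2 TPM in the Casp11-/- libraries, and since values per gene do not separate the removed part of the gene from the rest, they do not check the genotype labels. The column name in the file of Casp11-/- HFD replicate 2 differs from its title in the genotype prefix, and values without that library are given where it bore on a call.

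LXR and its partner bind paired copies of the sequence AGGTCA spaced by 4 bases. RefSeq promoter windows (build GRCm38.p6, from 250 bases before to 50 bases after a start) were at hand for 8 of the 10 genes, in 11 windows, and not for Abcg1 and Apoc1. A search of both strands for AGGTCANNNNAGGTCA with up to 2 mismatches in the 12 fixed letters found 0 of the 11 windows, against 3.02% of all 32851 windows. With 3 mismatches, a limit added after that result, only the Abca1 window held a match, against 21.9% of all windows. The match lies on chromosome 4, upstream of the start of Abca1, which is on the minus strand. It is shown because Abca1 is the gene whose values separated the diets most clearly after rescaling, with the matched letters in capitals, in the direction of the gene, so that the repeat reads on the opposite strand:
Abca1 promoter, chr4:53159947-53159962 in capitals: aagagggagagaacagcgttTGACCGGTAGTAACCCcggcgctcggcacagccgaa
A match of this kind is common among promoters and is given as a description only. Whether LXR binds at the match was not tested. Sites outside the windows were not searched.

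In the GENCODE annotation of GRCm38, Apoe (chr7:19696109-19699188), Apoc1 (chr7:19689481-19692660) and Apoc2 (chr7:19671579-19677941) lie together on the minus strand. The transporter genes are Abca1 (chr4:53030787-53159895, minus strand) and Abcg1 (chr17:31057675-31117988, plus strand). The receptor genes are Nr1h3 (chr2:91184061-91202834) and Nr1h2 (chr7:44549616-44553951), and Pltp is at chr2:164839518-164857711, all on the minus strand. Mylip (chr13:45389742-45412022) and Lpcat3 (chr6:124663027-124704418) are on the plus strand. Pltp overlaps Ctsa, Lpcat3 overlaps Emg1 and Nr1h3 overlaps the small nuclear RNA gene Gm23390, each on the opposite strand. Whether reads were assigned by strand is not given in the sources used here, so those levels may share reads. On the same strand, Nr1h3 overlaps the processed transcript gene Gm13783 and Abcg1 overlaps the rRNA gene Gm25447. Neither of these has values here, and the levels of Nr1h3 and Abcg1 may include their reads.

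All 10 genes were above the floor in every library and all passed the filter, so each was tested in each comparison. Apoe and Apoc1 ranked first and second among the 10 by TPM in each of the 11 libraries without WT-NCD replicate 3. Mylip and Abca1 lay between 26.5 and 75.5 TPM in those libraries, Abcg1 and Pltp between 8.23 and 55.3 TPM, and Nr1h3, Nr1h2, Lpcat3 and Apoc2 between 3.42 and 34.8 TPM, so neighbours within these sets overlapped. In WT-NCD replicate 3 Apoe was at 5.45 TPM and Abca1 at 1.28 TPM, far below every other library, and the order of the genes was different.

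**Figure D1:**
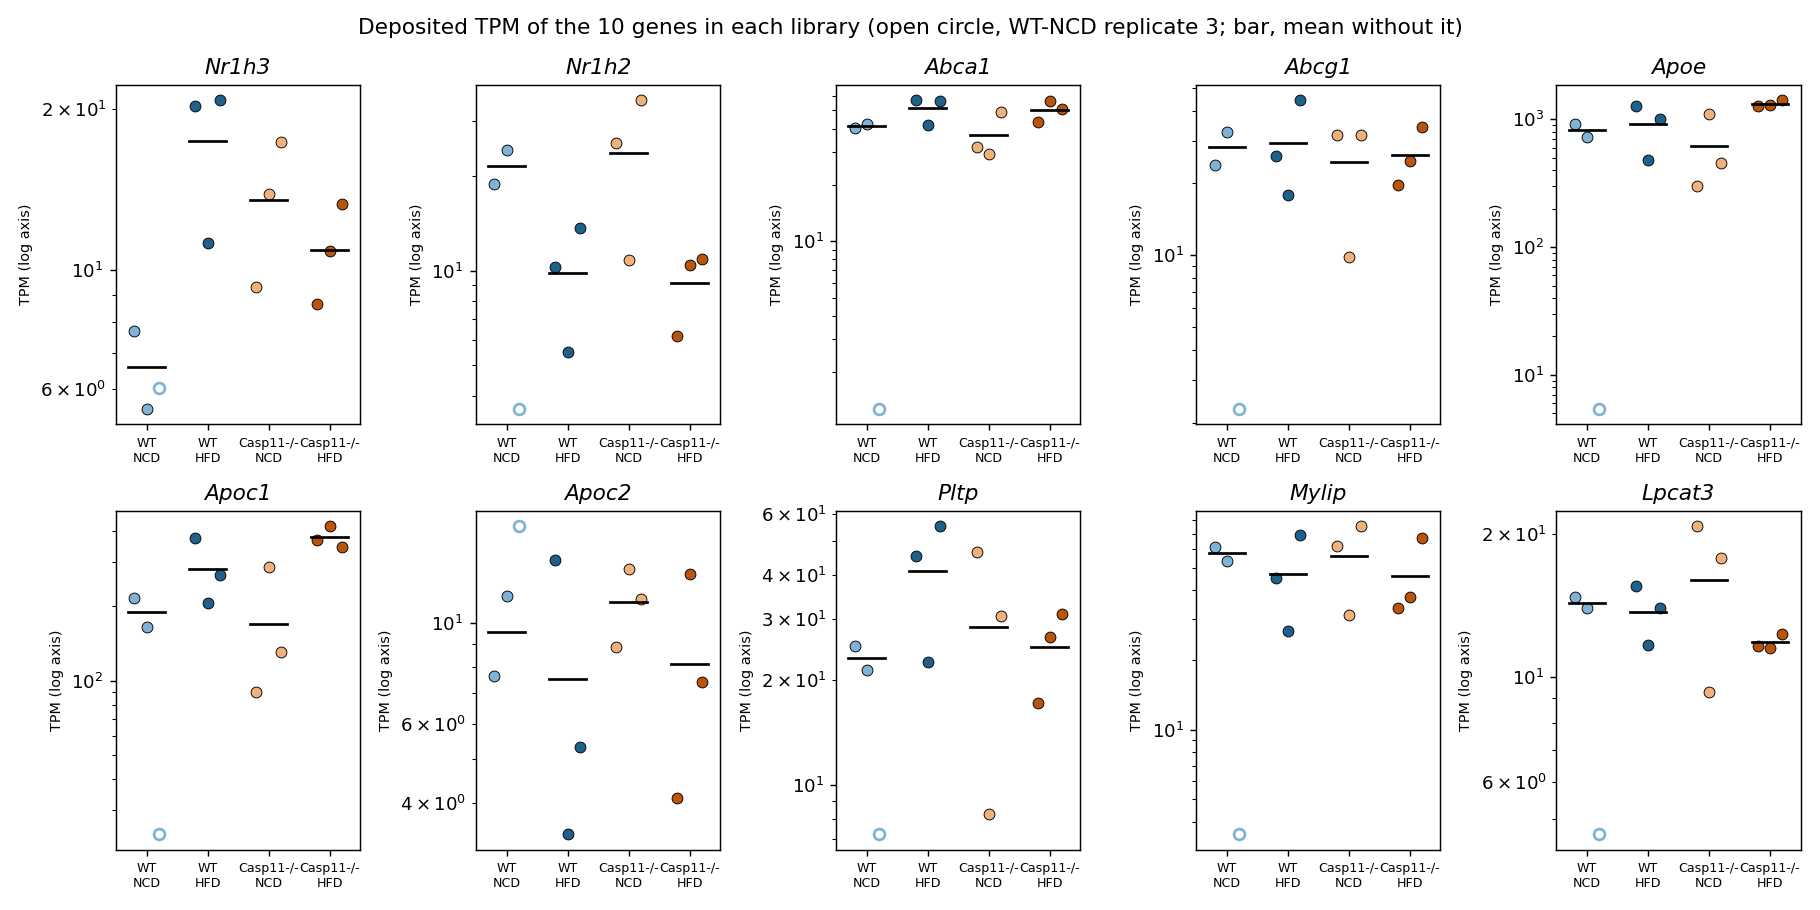
TPM (log axis) of each of the 10 genes in the 12 libraries by group, where an open circle is WT-NCD replicate 3 and the bar is the mean of a group without it. Apoe and Apoc1 lie highest, and the open circle falls far below the other points for Abca1, Abcg1, Apoe, Apoc1, Mylip and Lpcat3.

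Each receptor gene passed the diet test in some of the analyses only. Nr1h3, the receptor isoform enriched in macrophages, liver and fat, was at 7.71, 5.53 and 6.03 TPM in WT-NCD and at 20.2, 11.2 and 20.7 TPM in WT-HFD. The WT groups did not overlap. In Casp11-/- NCD it was at 9.30, 13.9 and 17.3 TPM and in Casp11-/- HFD at 8.65, 10.9 and 13.3 TPM, which overlapped. The WT difference of Nr1h3 was 1.27 ± 0.39 on the log2 scale (SE) with all libraries, with a limma adjusted p of 0.45, and 1.24 ± 0.51 (limma adjusted p = 0.26) once WT-NCD replicate 3 was left out. After rescaling without WT-NCD replicate 3, Nr1h3 rose in WT mice by 1.91 ± 0.34 (limma adjusted p = 0.0325), from 5.16 ± 1.58 TPM (SD, n = 2) to 21.8 ± 1.73 TPM (SD, n = 3). This call was kept when any Casp11-/- library was also left out and lost when any other WT library was (adjusted p up to 0.484).

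Nr1h2, the receptor isoform found in most tissues, was at 18.9, 24.3 and 3.64 TPM in WT-NCD and at 10.3, 5.50 and 13.7 TPM in WT-HFD. It was at 25.4, 10.8 and 34.8 TPM in Casp11-/- NCD and at 6.19, 10.4 and 10.9 TPM in Casp11-/- HFD. Without WT-NCD replicate 3, only Casp11-/- NCD replicate 2 among the 5 NCD libraries came within the HFD range. Over both genotypes Nr1h2 fell by 0.77 ± 0.47 (SE, log2 scale) with all libraries, which did not pass (limma adjusted p = 0.433), and by 1.15 ± 0.37 without WT-NCD replicate 3, which passed (limma adjusted p = 0.0366). After rescaling, the latter difference was -0.54 ± 0.21 and no longer passed (limma adjusted p = 0.0922). On deposited TPM the call was kept when WT-HFD replicate 3 or Casp11-/- NCD replicate 2 was also left out, and lost when any of the other 9 was (adjusted p up to 0.182).

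The ratio of Nr1h3 to Nr1h2 within a library does not depend on the scaling. It was chosen after the values were seen and is given without a test. The ratio was 0.408 and 0.228 in WT-NCD replicates 1 and 2 and 1.66 in replicate 3, and 1.97, 2.04 and 1.52 in WT-HFD. In Casp11-/- NCD it was 0.366, 1.29 and 0.498, and in Casp11-/- HFD 1.40, 1.04 and 1.22. Nr1h3 was thus the lower of the pair in 4 of the 6 NCD libraries and the higher in all 6 HFD libraries.

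After rescaling, both efflux transporters separated the diets completely. Abca1, which loads cholesterol onto lipid-poor apolipoprotein, was at 40.2, 42.4 and 1.28 TPM in WT-NCD, at 56.6, 42.0 and 56.4 TPM in WT-HFD, at 31.8, 29.4 and 49.2 TPM in Casp11-/- NCD and at 43.2, 56.2 and 50.7 TPM in Casp11-/- HFD. On this scale the diets overlapped in both genotypes, with or without WT-NCD replicate 3. After rescaling, the 5 NCD libraries were at 32.7 and 31.0 TPM in WT mice and at 23.9, 36.3 and 32.2 TPM in Casp11-/- mice, and the 6 HFD libraries were at 63.8, 74.1 and 61.9 TPM in WT mice and at 62.1, 66.4 and 61.2 TPM in Casp11-/- mice. Each HFD library lay above each NCD library. Abca1 rose over both genotypes by 1.03 ± 0.18 (SE, log2 scale, limma adjusted p = 0.00606), with 1.04 ± 0.27 in WT mice (adjusted p = 0.0933) and 1.03 ± 0.24 in Casp11-/- mice (adjusted p = 0.0395). On deposited TPM without WT-NCD replicate 3 the difference over both genotypes was 0.38 ± 0.33 (limma adjusted p = 0.366), and with all 12 libraries it was 1.09 ± 0.65 (limma adjusted p = 0.425). The rescaled difference over both genotypes kept its call when each of 10 of the other 11 libraries was also left out and lost it without WT-NCD replicate 2 (adjusted p = 0.0525), and the call within Casp11-/- mice was kept in the 1 of 11 cases that left out Casp11-/- NCD replicate 2.

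Abcg1, which passes cholesterol to high-density lipoprotein, was at 23.7, 32.7 and 2.29 TPM in WT-NCD, at 25.9, 17.9 and 44.4 TPM in WT-HFD, at 31.9, 9.84 and 31.7 TPM in Casp11-/- NCD and at 19.7, 24.9 and 34.5 TPM in Casp11-/- HFD. These groups overlapped, and on deposited TPM the difference over both genotypes was 0.63 ± 0.58 with all libraries (limma adjusted p = 0.564) and 0.11 ± 0.38 after leaving out WT-NCD replicate 3 (limma adjusted p = 0.82). After rescaling, the NCD libraries lay between 12.2 and 24.0 TPM and the HFD libraries between 28.3 and 48.7 TPM, with no overlap. The rescaled difference was 0.75 ± 0.23 and passed the test narrowly (limma adjusted p = 0.0492). The call was kept only without Casp11-/- NCD replicate 2 or replicate 3 and lost when any of the other 9 libraries was also left out (adjusted p up to 0.168). Abca1 and Abcg1 were the only 2 of the 10 genes with all 6 HFD libraries above all 5 NCD libraries after rescaling, against 3.88% of the 12368 genes tested on that scale, while 4.25% lay wholly below. On deposited TPM 0 of the 10 genes separated in either direction, against 0.39% of 17950 genes wholly above and 5.6% wholly below.

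**Figure D2:**
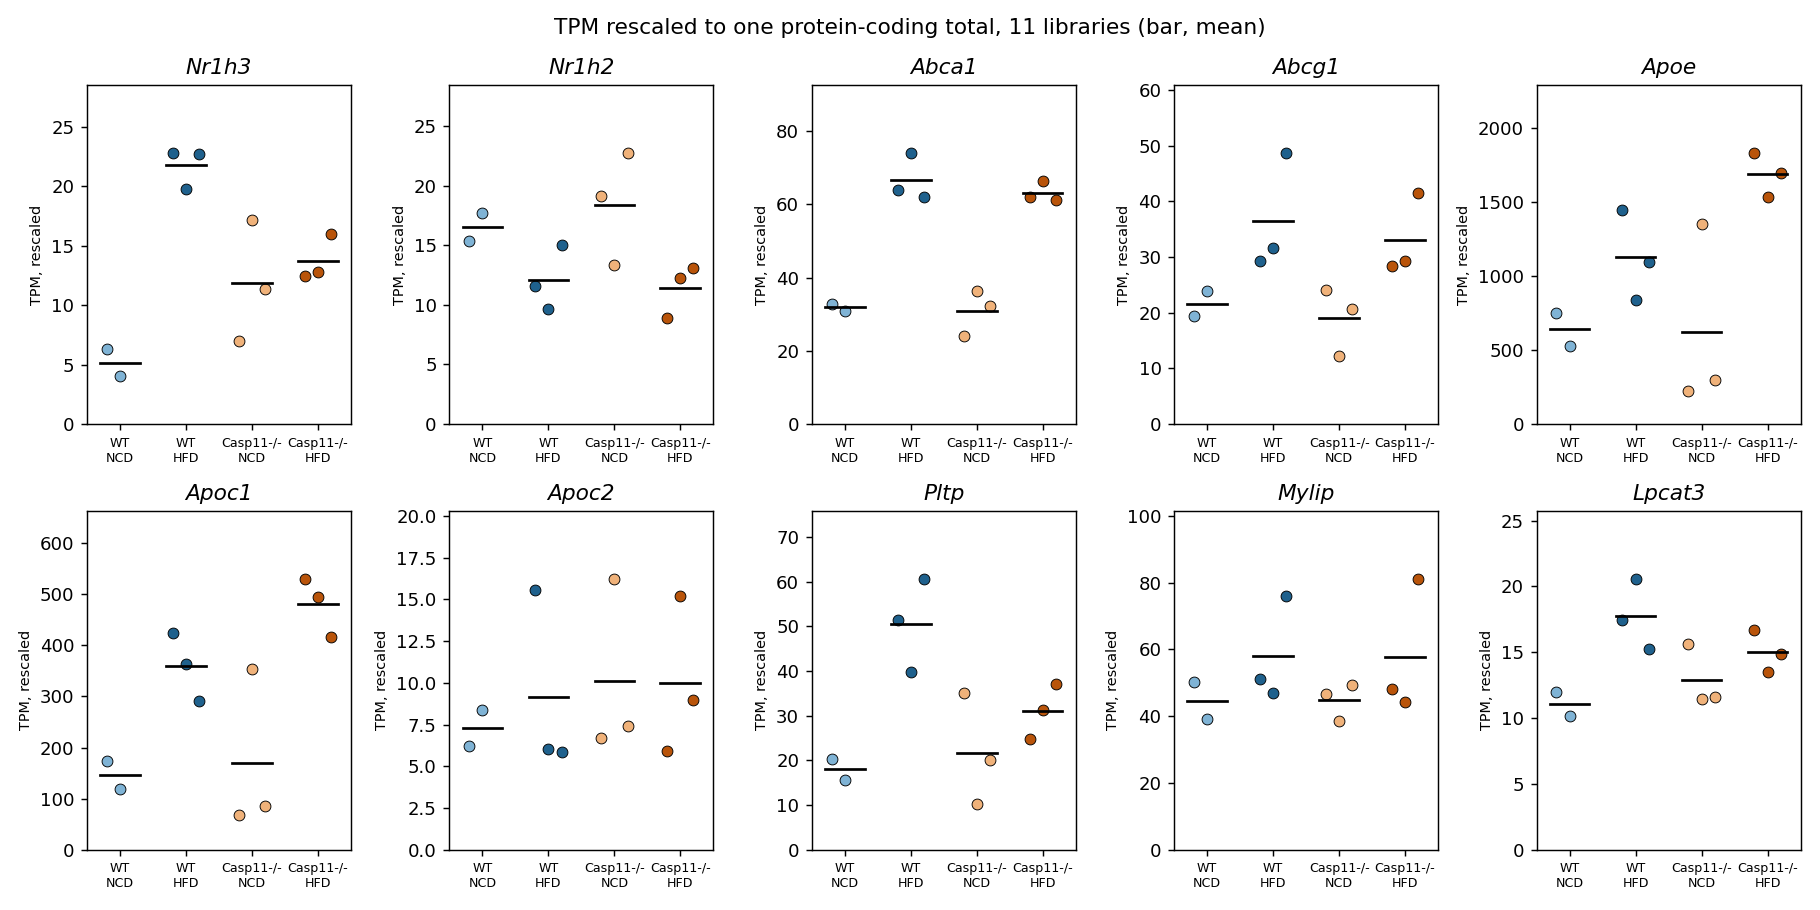
TPM after rescaling to one protein-coding total in the 11 libraries other than WT-NCD replicate 3, by gene and group, with the bar at the group mean. For Abca1 the HFD libraries lie at 61.2 to 74.1 and the NCD libraries at 23.9 to 36.3, and for Nr1h3 the WT-NCD and WT-HFD libraries lie apart while the Casp11-/- groups overlap.

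Apoe, the apolipoprotein that macrophages and hepatocytes both secrete, was at 924, 721 and 5.45 TPM in WT-NCD, at 1282, 477 and 997 TPM in WT-HFD, at 299, 1092 and 459 TPM in Casp11-/- NCD and at 1277, 1300 and 1408 TPM in Casp11-/- HFD. The WT groups overlapped, and the Casp11-/- HFD libraries lay above each Casp11-/- NCD library. Within Casp11-/- mice the difference was 1.32 ± 0.59 without WT-NCD replicate 3 (limma adjusted p = 0.165) and 1.90 ± 0.59 after rescaling (limma adjusted p = 0.0892), and it passed on both scales when Casp11-/- NCD replicate 2 was also left out (adjusted p = 0.0101 and 0.00147). Over both genotypes the difference of Apoe was 1.85 ± 1.22 with all libraries (limma adjusted p = 0.467), and 0.69 ± 0.44 (limma adjusted p = 0.242) and, rescaled, 1.35 ± 0.44 (limma adjusted p = 0.0587) after leaving out WT-NCD replicate 3. In Casp11-/- mice hepatocyte genes moved alongside. Their summed TPM was 6779, 18179 and 7607 in Casp11-/- NCD and 14829, 18085 and 19764 in Casp11-/- HFD. The Casp11-/- NCD library with the highest Apoe was thus also the one with the most hepatocyte RNA. In WT mice the sum was 25382 and 16942 in WT-NCD replicates 1 and 2 and 20070, 11396 and 9669 in WT-HFD. There WT-HFD replicate 3 had the lowest of these sums but Apoe above WT-NCD replicates 1 and 2. Relative to the hepatocyte sum Apoe was 4.40%, 6.01% and 6.03% in Casp11-/- NCD and 8.61%, 7.19% and 7.12% in Casp11-/- HFD. It was 3.64% and 4.26% in WT-NCD replicates 1 and 2, and 6.39%, 4.18% and 10.3% in WT-HFD. The part of hepatocyte RNA in the level of Apoe was not tested. In bulk RNA, fewer cells of a type and less RNA per cell cannot be told apart, here and for each gene of the set.

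Apoc1, a small apolipoprotein that lies beside Apoe on chromosome 7, was at 215, 164 and 24.0 TPM in WT-NCD, at 376, 206 and 265 TPM in WT-HFD, at 90.0, 286 and 131 TPM in Casp11-/- NCD and at 369, 418 and 345 TPM in Casp11-/- HFD. The Casp11-/- groups did not overlap, and the WT groups overlapped by 1 library, WT-HFD replicate 2. The authors had reported Apoc1 as higher on HFD in WT mice, using other software. Within WT mice its difference here was 1.51 ± 0.86 (SE, log2 scale) with all libraries (limma adjusted p = 0.513). Over both genotypes the difference was 1.42 ± 0.61 with all libraries (limma adjusted p = 0.273), and leaving out WT-NCD replicate 3 gave 0.93 ± 0.38 (limma adjusted p = 0.0828). After rescaling without that library Apoc1 rose by 1.59 ± 0.39 (limma adjusted p = 0.0204). This call was lost when WT-NCD replicate 1 or 2 or WT-HFD replicate 1 or 2 was also left out (adjusted p up to 0.115) and kept in the other 7 cases. As a share of the hepatocyte sum Apoc1 was 0.845% to 1.72% in the 5 NCD libraries and 1.74% to 2.74% in the 6 HFD libraries, next to each other without overlap, and the part of hepatocyte RNA was not tested.

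Apoc2, the cofactor of lipoprotein lipase, did not change past the test in any comparison. It was at 7.66, 11.5 and 16.4 TPM in WT-NCD, at 13.8, 3.42 and 5.32 TPM in WT-HFD, at 8.86, 13.1 and 11.3 TPM in Casp11-/- NCD and at 4.12, 12.9 and 7.43 TPM in Casp11-/- HFD, with overlap between all groups. Its difference over both genotypes was -0.62 ± 0.38 with all libraries (limma adjusted p = 0.438) and 0.08 ± 0.32 after rescaling without WT-NCD replicate 3 (limma adjusted p = 0.876). The gene overlaps another on the same strand, Gm44805, so its level is uncertain.

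Pltp, which transfers phospholipid between lipoproteins, was at 25.0, 21.3 and 7.21 TPM in WT-NCD and at 45.5, 22.6 and 55.3 TPM in WT-HFD. In Casp11-/- NCD it was at 46.6, 8.23 and 30.6 TPM, the widest spread of any group, and in Casp11-/- HFD at 17.2, 26.5 and 30.9 TPM. The authors had reported Pltp, too, as higher on HFD in WT mice. Within WT mice its difference here was 1.23 ± 0.67 (SE, log2 scale) with all libraries (limma adjusted p = 0.513). After rescaling without WT-NCD replicate 3 Pltp rose over both genotypes by 1.04 ± 0.28 (limma adjusted p = 0.0316), with 1.44 ± 0.42 in WT mice (adjusted p = 0.127) and 0.64 ± 0.38 in Casp11-/- mice (adjusted p = 0.302). On deposited TPM the difference over both genotypes was 0.39 ± 0.41 without that library (limma adjusted p = 0.456) and 0.65 ± 0.48 with it (limma adjusted p = 0.52). The rescaled call was kept when any Casp11-/- NCD library or Casp11-/- HFD replicate 1 was also left out, and lost in the other 7 cases (adjusted p up to 0.148).

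The remaining 2 genes showed no call in any comparison on either scale. Mylip was at 61.6, 53.4 and 3.54 TPM in WT-NCD, at 45.3, 26.5 and 69.3 TPM in WT-HFD, at 61.7, 31.2 and 75.5 TPM in Casp11-/- NCD and at 33.5, 37.4 and 67.4 TPM in Casp11-/- HFD, with wide overlap. Its difference over both genotypes was 0.29 ± 0.63 with all libraries (limma adjusted p = 0.742), -0.32 ± 0.37 after leaving out WT-NCD replicate 3 (limma adjusted p = 0.483) and 0.33 ± 0.23 after also rescaling (limma adjusted p = 0.318). Lpcat3, which puts polyunsaturated chains into membrane phospholipids, was at 14.7, 13.9 and 4.65 TPM in WT-NCD, at 15.5, 11.7 and 13.9 TPM in WT-HFD, at 20.8, 9.28 and 17.8 TPM in Casp11-/- NCD and at 11.6, 11.5 and 12.3 TPM in Casp11-/- HFD. The same 3 differences were 0.04 ± 0.33 (limma adjusted p = 0.937), -0.20 ± 0.33 (limma adjusted p = 0.619) and 0.42 ± 0.18 (limma adjusted p = 0.119).

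Read as a set, the diet comparison depended on the scale and on WT-NCD replicate 3. With all 12 libraries limma called 0 of the 10 genes over both genotypes, against 0.554% of the 19498 genes tested. Of the 10, 1 gene, Apoc1, had an unadjusted p under 0.05, against 16.8% of all genes. The median difference of the 10 was 0.57, against -0.61 for all genes. Within WT mice limma again called 0 of the 10, against 0.113% of genes, with 1 at an unadjusted p under 0.05, against 6.96%. Within Casp11-/- mice it called 0, against 0%, with 0 at an unadjusted p under 0.05, against 8.48%. Without WT-NCD replicate 3 the count over both genotypes was 1 of 10, Nr1h2, against 18.3% of 17950 genes, with a median of 0.24 against -0.39 for all genes. Within WT mice 0 of the 10 passed, against 2.18% of genes, with 1 at an unadjusted p under 0.05, against 2734 of 17950 genes. Within Casp11-/- mice 0 passed, against 1.1% of genes, with 3 at an unadjusted p under 0.05, against 4845 of 17950 genes.

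After rescaling without WT-NCD replicate 3, 5 of the 10 genes were called over both genotypes, all higher on HFD, against 13.7% of 12368 protein-coding genes called and 7.45% called higher. The 5 were Nr1h3 (1.09 ± 0.23, limma adjusted p = 0.0115, against 0.51 ± 0.28 and 0.376 with all libraries on deposited TPM), Abca1, Abcg1, Apoc1 and Pltp. The median of the 10 was 0.89 against -0.05 for all genes tested. Within WT mice 1 of 10 passed, Nr1h3, against 0.809% of genes, and within Casp11-/- mice 1 of 10, Abca1, against 3.55%. Leaving out each of the other 11 libraries as well gave 0 to 7 called genes over both genotypes, and the share of all genes called moved as well. Without WT-NCD replicate 2 the count was 0, against 1.75% of genes. Without Casp11-/- NCD replicate 2 it was 7, against 32.5% of genes, the 7 being the same 5 with Apoe, higher, and Nr1h2, lower. Without Casp11-/- HFD replicate 2, whose column name differs from its title, 3 passed, namely Nr1h3, Abca1 and Apoc1, against 11.3% of genes. With rescaling and all 12 libraries 0 of the 10 passed over both genotypes, against 455 of 12796 genes. There were 6 of the 10 at an unadjusted p under 0.05, against 20.8% of genes.

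**Figure D3:**
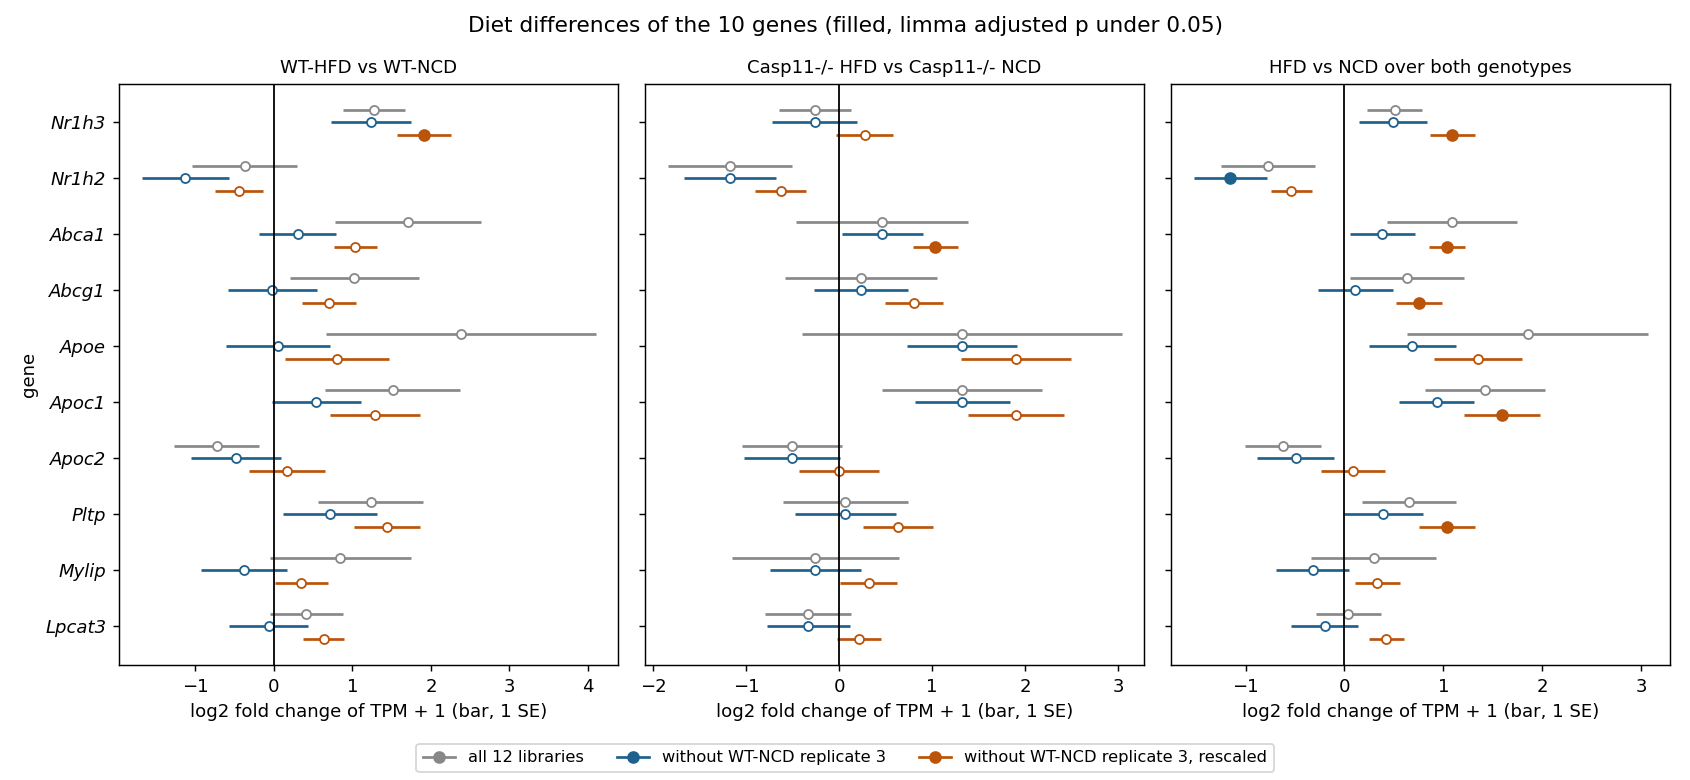
Log2 fold change of TPM + 1 with 1 SE for the diet comparison in WT mice, in Casp11-/- mice and over both genotypes, for each of the 10 genes under 3 treatments of the data, with filled points where the limma adjusted p is under 0.05. The filled points are Nr1h3 in WT mice, Abca1 in Casp11-/- mice, and over both genotypes Nr1h2 on deposited TPM and 5 genes after rescaling.

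No gene of the set was called between genotypes. On NCD limma called 0 of 10 with all libraries, without WT-NCD replicate 3 and after rescaling without it, against 0%, 0.0557% and 0% of genes. At an unadjusted p under 0.05 there were 1 (Nr1h3), 0 and 1 of the 10, against 1.5%, 3.24% and 3.82% of genes. On HFD limma called 0 of 10 in each of these 3 analyses, against 0% of genes in each. At an unadjusted p under 0.05 there were 0 in each, against 0.154%, 0.752% and 2.51% of genes. The differences on HFD ran from -0.65 for Pltp to 0.65 for Apoe on deposited TPM. Each SE was 0.39 or more with all libraries, so differences of this size could not be told from none. For the interaction, the diet difference in Casp11-/- mice minus that in WT mice, limma called 0 of 10 with all libraries (background 0%), without WT-NCD replicate 3 (background 0.00557%) and after rescaling without it (background 0%). In each, against 0.79%, 2.6% and 5.18% of all genes, 1 gene of the set had an unadjusted p under 0.05, Nr1h3. Its interaction was -1.53 ± 0.55 with all libraries (adjusted p = 0.78) and -1.64 ± 0.46 after rescaling without WT-NCD replicate 3 (unadjusted p = 0.00338, adjusted p = 0.881), so a different response of Nr1h3 to diet in the 2 genotypes was not established.

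A list of 14 other LXR target genes was written with earlier results of these data known, so its counts are a description. The authors had reported Cd5l and Lpl, both in the list, as higher on HFD from these libraries, along with Apoc1 and Pltp. Cd5l, a secreted macrophage protein induced by LXR, was at 8.53, 4.28 and 6.53 TPM in WT-NCD and at 186, 70.6 and 169 TPM in WT-HFD, and at 6.11, 5.68 and 7.57 TPM in Casp11-/- NCD and 63.5, 55.3 and 81.3 TPM in Casp11-/- HFD. The diets did not overlap in either genotype. Over both genotypes Cd5l rose by 3.68 ± 0.32 with all libraries (limma adjusted p = 0.00343). Lpl, lipoprotein lipase, rose by 2.16 ± 0.41 (limma adjusted p = 0.0498) and was called in the same comparison. With all libraries 2 of the 14 were thus called higher and 0 lower, against 8 of 19498 genes called higher. The call of Cd5l was kept when any 1 library was left out (adjusted p up to 0.0271), while Lpl was called only without WT-NCD replicate 3 or Casp11-/- NCD replicate 2 and lost its call in the other 10 cases (adjusted p up to 0.15). Without WT-NCD replicate 3, 6 of the 14 were called higher and 0 lower, against 1.07% of all genes called higher: Cd5l, Lpl, Mertk, a receptor for apoptotic cells, Abcg5 and Abcg8, which together export sterol from hepatocytes, and Scd1, a fatty acid desaturase. After rescaling without that library 8 of the 14 were called higher and 0 lower, against 7.45% of genes called higher. The 8 were the same 6 with Srebf1, the regulator of fatty acid synthesis, and Tgm2. The median of the 14 was 0.77, 0.48 and 1.07 in these 3 analyses, against -0.61, -0.39 and -0.05 for all genes. On deposited TPM without WT-NCD replicate 3 Fasn, fatty acid synthase, lay wholly below on HFD, against 5.6% of genes. Scd1 and Cd5l lay wholly above, against 0.39% of genes. After rescaling 0 of the 14 lay wholly below, against 4.25% of genes. On that scale Scd1, Mertk, Cd5l and Lpl lay wholly above, against 3.88% of genes.

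None of the 11 partners and coregulators of LXR was called higher on HFD over both genotypes. With all libraries limma called 0 of the 11, with 1 at an unadjusted p under 0.05, against 16.8% of all genes. Without WT-NCD replicate 3 there were 3 called lower and 0 higher, against 17.3% of all genes called lower. Among these were Rxrb, a retinoid X receptor (-1.16 ± 0.35, limma adjusted p = 0.0298), and Gps2, a corepressor subunit (-1.21 ± 0.41, limma adjusted p = 0.0418). After rescaling limma called 0 of the 11, with a median of -0.19 and 3 at an unadjusted p under 0.05, against 34.1% of genes. Nr1h2 likewise lost its call on that scale.

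Of 14 genes for cholesterol uptake and handling inside the cell, 13 could be tested. Vldlr, a target of Mylip, was at or close to the floor in all libraries, with no value above 1.05 TPM, and was not tested. The scavenger receptors Cd36 and Msr1 rose, by 1.88 ± 0.39 and 1.32 ± 0.41 without WT-NCD replicate 3 (limma adjusted p = 0.00279 and 0.0326), and did not pass with all libraries (limma adjusted p = 0.078 and 0.189). After rescaling 4 of the 13 were called higher and 0 lower, against 7.45% of genes called higher. They were Cd36, Msr1, Lipa, the lysosomal lipase, and Ch25h, which makes an oxysterol. Ch25h lay near the floor, at no more than 1.95 TPM in those 11 libraries. Rescaling moves the floor as well, up where the protein-coding share is low, as it mostly was on HFD. The part of this in the call of Ch25h was not tested. With all libraries limma called 0 of the 13, with 2 at an unadjusted p under 0.05, against 16.8% of all genes.

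Marker genes of several cell types also moved with diet. Over both genotypes without WT-NCD replicate 3, 1.07% of all genes were called higher and 17.3% lower on deposited TPM. After rescaling 7.45% were called higher and 775 of 12368 lower. On the same 2 scales 36.8% and 34.1% of all genes had an unadjusted p under 0.05. Summed TPM of the 11 Kupffer cell genes was 62.6 to 379 in the 5 NCD libraries and 242 to 779 in the 6 HFD libraries, and over both genotypes 9 of the 11 were called higher and 0 lower without WT-NCD replicate 3, and 10 after rescaling. Cd5l and Lpl of the LXR targets are themselves expressed by Kupffer cells. Of 6 sinusoidal endothelial genes 4 were called higher without WT-NCD replicate 3 and 5 after rescaling, with summed TPM of 95.4 to 424 on NCD and 196 to 1073 on HFD. All 6 B cell genes were called lower on both scales without WT-NCD replicate 3, with summed TPM of 466 to 1749 on NCD and 139 to 326 on HFD, and 6 of 8 T and NK cell genes were called lower on deposited TPM and 2 after rescaling. Limma called 0 of the 10 hepatocyte genes on either scale, with 0 and 6 of them at an unadjusted p under 0.05 on deposited and rescaled TPM and medians of 0.35 and 1.01. Monocyte and neutrophil genes gave 0 limma calls among the 7 tested (1 and 0 at an unadjusted p under 0.05 on the same scales), with one library far above the others, Casp11-/- HFD replicate 2, at 4284 summed TPM against 247 to 1542 in the other 10 libraries. With all 12 libraries the calls over both genotypes were far fewer: 5 of the 11 Kupffer cell genes, all higher, and by limma 0 of 6 sinusoidal endothelial (5 at an unadjusted p under 0.05), 0 of 6 B cell (2) and 0 of 8 T and NK cell genes (2), with 0 of 10 hepatocyte (0) and 0 of 7 monocyte and neutrophil genes (0). Of all genes, 0.554% were called with all 12 libraries and 16.8% had an unadjusted p under 0.05. The part of these cell types in the differences of Nr1h3, Abca1, Abcg1, Apoc1 and Pltp was not tested.

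**Figure D4:**
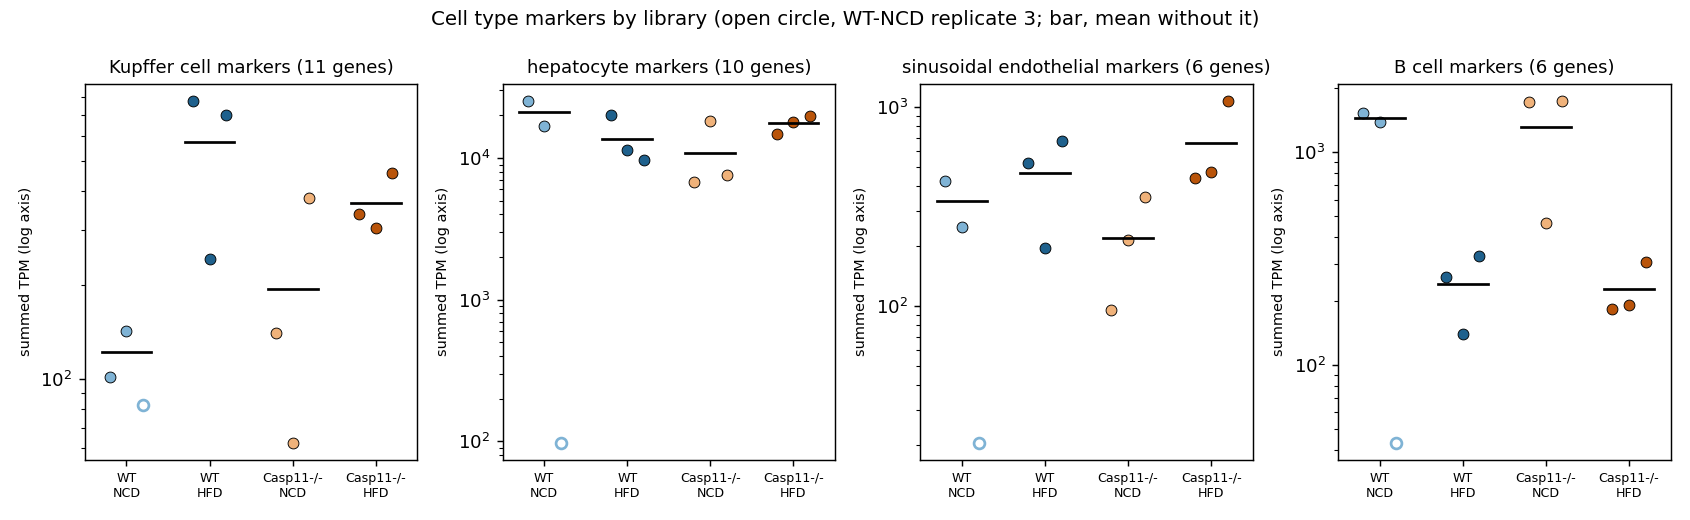
Summed TPM (log axis) of the marker genes of 4 cell types in each library by group, where an open circle is WT-NCD replicate 3 and the bar is the group mean without it. Kupffer cell sums reach 242 to 779 on HFD, B cell sums fall to 139 to 326, and hepatocyte sums overlap between the diets.

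The genes whose log2 TPM ran most like that of a member were listed over the 11 libraries among 9344 protein-coding genes above the floor in all of them. These correlations are descriptions, since the libraries share the diet difference and the make-up above. For Abca1 the nearest were Ddx60 (r = 0.96), Sdc3 (0.94) and Siglec1 (0.93), of which Siglec1 is a macrophage marker. For Abcg1 they were Clic4 (0.94), Leprot (0.93) and Rsu1 (0.92). For Apoe they were Apoa2 (0.94), an apolipoprotein made by hepatocytes, Shroom2 (0.93) and Aass (0.93). For Nr1h3 the nearest genes were less close, Arhgap5 (0.85), Leap2 (0.82) and Dmpk (0.79).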

How the data were processed

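Total RNA libraries were random-primed and stranded. Per the labels, mm10 and GRCm38.p6 were the builds and STAR a tool used, and the authors derived TPM with the Qlucore Omics Explorer software. Those TPM were deposited as the score values used here, raised to a floor of 1.01 and summing to slightly over the fixed total of TPM, so they were treated as a score. No read counts are given, so depth and counting error are unknown. Each file held 6 rows without a gene name, which were left out.

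Groups were taken from the sample titles. Nothing but the titles separates replicates as mice, and p-values measure the spread between these libraries. A gene was tested if at least 3 libraries exceeded the floor. Models were fitted to log2(TPM + 1), which understates changes of low genes, using limma (version 3.58.1, R version 4.3.3) with a trended spread shared by the 4 groups. Tests were two-sided, with Benjamini-Hochberg adjustment over all genes tested and calls at an adjusted p under 0.05. Rescaling brought the 21702 protein-coding genes of RefSeq to a common total in each library. Values at the floor were multiplied with the rest, so rescaled values of low genes partly follow the protein-coding share of a library. The shares of all genes on that scale include such genes. The fit was tested on simulated data. Replicate numbers were not treated as pairs.

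The 10 genes and the lists were chosen with earlier results of these data known. Named genes outside the set were those called over all libraries or without WT-NCD replicate 3, or closest to it, plus Vldlr, Cd5l and Lpl. Some genes that this rule names are not reported here. Other genes named as called after rescaling were named after their values were seen.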

Additional observations from a re-analysis of the deposited data

How the results depend on the processing

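The counts of called genes in the set were 0 in each of the 6 comparisons with all libraries. They stayed at 0 when only genes above the floor in every library were kept, and with no filter beyond 1 value above the floor. They also stayed at 0 with a pseudocount of 0.1 and with the spread of the compared groups only (the 4 comparisons of 2 groups). The same held with rescaling alone and with the replicate block. Of all genes, 601 of 9728 were called over both genotypes with the first of these filters and 111 of 40376 with the second. In the same comparison the pseudocount gave 130 of 19498, rescaling 455 of 12796 and the replicate block 16 of 19498. With the replicate block, 0 of all genes were called in the other 5 comparisons. Correlations of same-numbered libraries' deviations from their group means ran from -0.64 to 0.47, and without WT-NCD replicate 3 from -0.33 to 0.47. The replicate 3 libraries of the other 3 groups deviated together (0.25 to 0.47), but not every pair of replicates 1 and 2 did, so the libraries were taken to share only a number. Leaving out 1 library gave 0 to 1 called genes over both genotypes and 0 in the other 5 comparisons, the 1 being Nr1h2 without WT-NCD replicate 3. Rescaling without that library gave 1 called gene in WT mice, 1 in Casp11-/- mice and 5 over both genotypes. Leaving out another library as well, an alternative chosen after the data were seen, gave 0 to 4, 0 to 4 and 0 to 7 on both scales together. An arm left with 1 library is assumed to vary like the others. The cause of these changes was not tested.

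None of the sign changes below was of a called value. Log2 differences that changed sign when 1 library was left out are given as their lowest and highest values. In WT-HFD against WT-NCD, Nr1h2 ran from -1.13 to 0.091, Abcg1 ran from -0.021 to 1.66, Mylip ran from -0.38 to 1.51 and Lpcat3 ran from -0.068 to 0.67. In Casp11-/- HFD against Casp11-/- NCD, Abcg1 ran from -0.30 to 0.50 and Pltp ran from -0.62 to 0.56. In HFD against NCD over both genotypes, Mylip ran from -0.32 to 0.63 and Lpcat3 ran from -0.20 to 0.17. In Casp11-/- NCD against WT-NCD, Nr1h2 ran from -0.0051 to 1.22, Abca1 ran from -0.20 to 1.93, Abcg1 ran from -0.35 to 1.33, Apoe ran from -0.62 to 2.96, Apoc1 ran from -0.32 to 1.23, Apoc2 ran from -0.30 to 0.20, Pltp ran from -0.0048 to 1.20 and Mylip ran from -0.12 to 1.77. In Casp11-/- HFD against WT-HFD, Nr1h2 ran from -0.37 to 0.21, Abca1 ran from -0.18 to 0.060, Abcg1 ran from -0.39 to 0.24, Apoc2 ran from -0.20 to 0.67 and Mylip ran from -0.34 to 0.33. In the interaction, Abca1 ran from -1.97 to 0.16, Abcg1 ran from -1.42 to 0.26, Apoe ran from -2.32 to 1.27, Apoc1 ran from -0.77 to 0.78, Apoc2 ran from -0.16 to 0.72 and Mylip ran from -1.77 to 0.13. With rescaling, the sign also changed for these values. In Casp11-/- HFD against Casp11-/- NCD, Nr1h3 was 0.27, Apoc2 was 0.00052, Mylip was 0.32 and Lpcat3 was 0.21. In Casp11-/- HFD against WT-HFD, Mylip was -0.023. In the interaction, Apoc1 was 0.073. With rescaling and no WT-NCD replicate 3, the sign also changed for these values. In WT-HFD against WT-NCD, Apoc2 was 0.17. In Casp11-/- HFD against Casp11-/- NCD, Nr1h3 was 0.27, Apoc2 was 0.00053, Mylip was 0.32 and Lpcat3 was 0.21. In HFD against NCD over both genotypes, Apoc2 was 0.085. In Casp11-/- NCD against WT-NCD, Abca1 was -0.066, Abcg1 was -0.22, Apoe was -0.48, Apoc1 was -0.18 and Apoc2 was 0.33. In Casp11-/- HFD against WT-HFD, Mylip was -0.023. In the interaction, Abcg1 was 0.10, Apoe was 1.10, Apoc1 was 0.61 and Apoc2 was -0.17. Values of low genes are limited by the floor, and without read counts the depth behind each value is unknown.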
